A study of Mus musculus with 21 samples.

Results

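The circadian clock genes described here are Arntl (also called Bmal1), Clock, Per1, Per2, Per3, Cry1, Nr1d1, Nr1d2, Dbp and Ciart, 10 of the 49315 genes counted in the files. They were chosen by name, each was found once, and all 10 passed the filter on low counts. RNA came from epidermal sheets of mouse skin, and the series concerns Tfap2a and Tfap2b, the genes of 2 AP-2 transcription factors. It holds 21 samples in 7 groups of 3, but in 13 files, all from mice of 3 weeks, every gene was listed at 0. The 8 libraries with counts were 3 control-strain specific samples at 6 months with genotype WT, 3 at 6 months with genotype K14CreTfap2afl/flTfap2bfl/fl, and 2 at 3 weeks with genotype K14CreTfap2bfl/fl. These groups are called controls, libraries labelled double knockout (or the labelled knockouts) and libraries labelled Tfap2b knockout below. K14Cre expresses Cre recombinase from the promoter of Krt14, a keratin of basal keratinocytes, so immune cells, melanocytes and other cells in a sheet are not the intended target. The labels give neither the time of day at which skin was taken nor whether the controls carried floxed alleles.

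The clock is a feedback loop that runs in almost every cell. The proteins of Arntl and Clock bind E-boxes as a pair and switch on the Per and Cry genes, whose proteins return to the nucleus and block that pair. In a second loop, the REV-ERB repressors encoded by Nr1d1 and Nr1d2 hold Arntl down and the ROR activators raise it, so that Arntl transcripts peak when those of Nr1d1 and Dbp are low. Dbp, Tef and Hlf encode related activators of D-box sites, Nfil3 a repressor of the same sites, and Ciart a repressor of the Arntl and Clock pair. In epidermis this loop is known to time stem cell division and differentiation over the day. A single sample catches each transcript at 1 point of its cycle.

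Promoter sequences are shown for Cry1 and Nr1d2, the members past the threshold below, for Nr1d1 as the close relative of Nr1d2, for Per3 as the only member with a D-box match, and for Ciart as the member with the most matches. They are the 250 bases before the transcription start in RefSeq (GRCm38.p6), written 5′ to 3′ on the strand of the gene, all on the minus strand. Capitals mark the E-box CACGTG, the E-box-like CACGTT, the D-box TTANGTAA and the half-site AGGTCA that ROR and REV-ERB proteins read, on either strand.
Cry1, chr10:85185055-85185304: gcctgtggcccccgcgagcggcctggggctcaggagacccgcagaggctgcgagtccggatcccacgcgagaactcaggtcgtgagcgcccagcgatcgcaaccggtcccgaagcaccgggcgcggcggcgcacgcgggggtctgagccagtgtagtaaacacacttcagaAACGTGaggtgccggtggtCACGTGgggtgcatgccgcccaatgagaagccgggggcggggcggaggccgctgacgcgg
Nr1d2, chr14:18239107-18239356: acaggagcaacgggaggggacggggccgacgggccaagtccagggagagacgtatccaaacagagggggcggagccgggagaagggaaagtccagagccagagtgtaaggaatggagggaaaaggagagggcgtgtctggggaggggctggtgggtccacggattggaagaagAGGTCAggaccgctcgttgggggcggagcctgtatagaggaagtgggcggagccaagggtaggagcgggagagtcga
Nr1d1, chr11:98775378-98775627: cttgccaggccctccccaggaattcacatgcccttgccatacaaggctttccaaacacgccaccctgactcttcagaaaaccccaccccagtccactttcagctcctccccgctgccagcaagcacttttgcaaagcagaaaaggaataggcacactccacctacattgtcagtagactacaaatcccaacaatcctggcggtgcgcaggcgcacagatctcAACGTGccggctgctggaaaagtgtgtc
Per3, chr4:151044666-151044915: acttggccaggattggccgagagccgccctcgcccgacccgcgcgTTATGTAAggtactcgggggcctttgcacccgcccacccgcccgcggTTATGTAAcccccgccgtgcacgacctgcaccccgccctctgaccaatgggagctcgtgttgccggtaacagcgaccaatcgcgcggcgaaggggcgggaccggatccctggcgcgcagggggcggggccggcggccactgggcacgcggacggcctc
Ciart, chr3:95882229-95882478: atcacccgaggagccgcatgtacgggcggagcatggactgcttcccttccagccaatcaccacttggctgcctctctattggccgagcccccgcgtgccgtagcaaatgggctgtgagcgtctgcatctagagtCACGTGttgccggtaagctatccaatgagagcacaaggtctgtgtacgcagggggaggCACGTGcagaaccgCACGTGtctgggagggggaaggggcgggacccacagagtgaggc

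Of the 10 members, all but Per2 (9) had entries in the promoter table. In windows from 250 bases before to 50 bases after each start, an E-box was found for 3 of these 9, an E-box-like site for 2, a D-box for 1 and the half-site for 4. Over all 27025 genes of the table the shares with each motif were 8.09%, 5.44%, 2.72% and 18.1%. Ciart held 3 E-boxes, with first bases at -116, -58 and -44 from the start site. Cry1 held 1 E-box at -60 and 1 E-box-like site at -79, and Per1 1 E-box at -166. Both D-boxes of the members lay in Per3, at -205 and -158. Nr1d2 held the half-site at -77, and Nr1d1 an E-box-like site at -28. A match is a description of the letters in the window.

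The 8 libraries held 11318181 to 17746284 counts. A pair of facts bears on the reading of the members. First, control replicates 1 and 2 held 1.61 and 3.19 counts per exonic kb in odorant and vomeronasal receptor genes, against 0.0970 to 0.195 in the other 6 libraries. Second, the library labelled Tfap2b knockout of replicate 1 held 2511 CPM (counts per 1000000 counts of the library) summed over 5 dermal fibroblast markers, 666 over 3 adipocyte markers and 308 over 2 endothelial markers, against 16.9, 0.240 and 0.320 in replicate 2. The 2 sets of epidermal markers were high in all 8 libraries. The 5 basal markers summed to 6108 to 8116 CPM in the controls, 13900.3 to 17019 in the labelled knockouts and 7178 to 8039.8 at 3 weeks. The 4 suprabasal markers summed to 6918 to 11156 over all 8, most of it Krt10 (5235 to 7824 CPM). At 6 months Krt1 was higher and Lor lower in every labelled knockout than in every control, while Krt10 and Flg overlapped. At 6 months the controls lay below the labelled knockouts in the basal sum. They lay above them in the sums of sebaceous gland markers (719 to 852 CPM, against 169.8 to 224), hair follicle stem cell markers (36.3 to 88.3, against 5.18 to 31.2), fibroblast markers (50.1 to 148, against 10.2 to 21.7) and skeletal muscle markers (4.62 to 11.1, against 1.16 to 2.80), and the part of cell makeup in the results was not tested. The sebaceous sum was almost all Scd1, which was at 8197 CPM in replicate 1 of the libraries labelled Tfap2b knockout. Awat1 and Mc5r, at 2.21 CPM or less at 6 months, overlapped between the groups. So did the hair follicle marker Lhx2 and the muscle marker Mylpf. The muscle marker Myh4 was at 2.66 and 3.36 CPM in control replicates 1 and 2, the controls with more receptor-gene counts. It was at 0 in control replicate 3 and in every labelled knockout. The part of that background in the muscle sum was not tested. The sums therefore do not speak for each marker. In bulk tissue, fewer cells of a type and less RNA per cell cannot be told apart. Tfap2a was at 164.6, 140.3 and 210.1 CPM in the controls, against 229, 213 and 309 in the labelled knockouts, and Tfap2b at 57.3, 86.6 and 71.03 against 53.8, 57.2 and 56.9, so counts over the whole gene did not show the loss that the label names. Each direction is that of a label.

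At 6 months, Cry1 fell and Nr1d2 rose in the libraries labelled double knockout, and the other 8 members did not pass the test. The comparison set these 3 libraries against the 3 controls, with edgeR's quasi-likelihood test and Benjamini-Hochberg adjustment over all 17755 genes tested, at a threshold of 0.05. Of all genes tested, 14.9% passed, 6.26% as higher and 8.59% as lower. The 2 of 10 members called, 1 in each direction, are to be read against that share. The median log2 fold change was -0.42 over the members and -0.04 over all genes tested, and 5 of the 10 members had an unadjusted p under 0.05, against 32% of all genes tested.

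**Figure D1:**
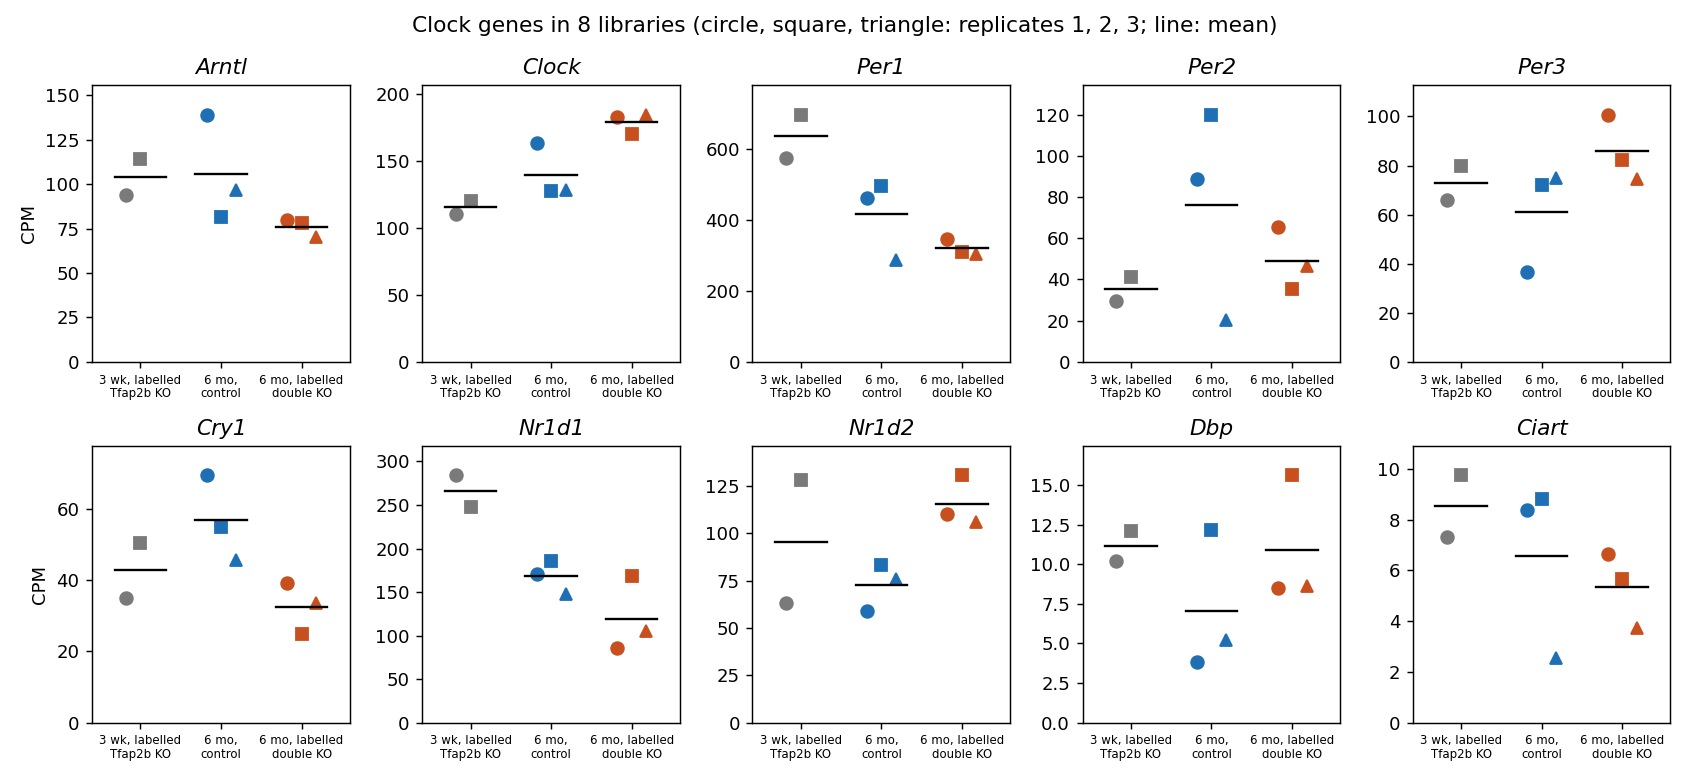
CPM (counts per 1000000 counts, y axis of each panel, starting at 0) of the 10 clock genes in 2 libraries labelled Tfap2b knockout at 3 weeks, 3 controls and 3 libraries labelled double knockout at 6 months; symbols mark replicates and lines the group means. The libraries labelled double knockout lie below all controls in Arntl and Cry1 and above all controls in Clock and Nr1d2.

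In 4 of the 10 members the groups showed no overlap, against 38.7% of all genes tested (22.5% higher, 16.3% lower). In Nr1d2 and Clock every library labelled double knockout lay above every control, and in Cry1 and Arntl every one lay below. In the other 6 members the groups overlapped.

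Arntl (ENSMUSG00000055116, chromosome 7, 113207465 to 113314126, plus strand, GRCm38) encodes BMAL1, the partner of CLOCK. It was at 139, 81.8 and 97.0 CPM in the controls, against 79.6, 78.3 and 70.5 CPM in the labelled knockouts. Control replicate 1 stood above the rest, and control replicate 2 lay only just above the highest library labelled double knockout. The log2 fold change was -0.55 (SE 0.19, adjusted p 0.0813 in edgeR), and it did not pass the threshold in any of the 15 alternatives, with adjusted p of 0.0610 to 0.225. Without control replicate 1 it was -0.30.

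Clock (ENSMUSG00000029238, chromosome 5, 76209868 to 76304792, minus strand) encodes the other protein of that pair. It was at 163, 128 and 128 CPM in the controls, against 183, 171 and 185 CPM in the labelled knockouts. The groups did not overlap, yet the gap was small beside the spread. In the test the log2 change was 0.28 (SE 0.14, adjusted p 0.196 in edgeR). Npas2 encodes a paralog of CLOCK that can also pair with BMAL1. It fell from 25.0, 19.7 and 33.3 CPM to 8.04, 13.2 and 7.33 CPM, a log2 change of -1.51 (SE 0.28, adjusted p 0.00960 in edgeR), lower in 3 of 3 libraries. Among 15 alternatives only the fit without replicate 1 of the libraries labelled double knockout lost the call, at an edgeR adjusted p of 0.0629.

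The period genes, whose proteins join the cryptochromes as repressors, had uneven controls. Per1 (ENSMUSG00000020893, chromosome 11, 69095217 to 69109960, plus strand) was at 464, 497 and 289 CPM in the controls, against 346, 311 and 304 CPM in the labelled knockouts. Per2 (ENSMUSG00000055866, chromosome 1, 91415982 to 91459324, minus strand) was at 88.5, 119.98 and 20.4 CPM in the controls, against 65.5, 35.5 and 46.4 CPM in the labelled knockouts. In both genes control replicate 3 was the lowest control and lay below all 3 libraries labelled double knockout.

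The log2 fold change was -0.46 for Per1 (SE 0.20, adjusted p 0.144 in edgeR) and -0.72 for Per2 (SE 0.62, adjusted p 0.468 in edgeR). Without control replicate 3 both passed the threshold as lower, Per1 at -0.58 (edgeR adjusted p 0.00844) and Per2 at -1.08 (edgeR adjusted p 0.00904). With control replicate 3 as the only control, both turned to the other side, at 0.095 and 1.20. Which controls entered therefore set the direction of Per1 and Per2.

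Per3 (ENSMUSG00000028957, chromosome 4, 151003652 to 151044665, minus strand) differed from its paralogs in its control pattern. It was at 36.6, 71.9 and 75.1 CPM in the controls, against 101, 82.4 and 74.7 CPM in the labelled knockouts. Here control replicate 1 was the low one, and the other 2 controls lay near the lowest library labelled double knockout. The change was 0.41 on the log2 scale (SE 0.25, adjusted p 0.284 in edgeR), and 0.16 without control replicate 1.

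Cry1 (ENSMUSG00000020038, chromosome 10, 85131700 to 85185064, minus strand) encodes a cryptochrome, the repressor that closes the main loop. It was at 69.5, 55.1 and 45.8 CPM in control replicates 1 to 3 and at 39.3, 24.9 and 33.6 CPM in the labelled knockouts. All 3 of the latter lay below the lowest control. Cry1 fell, with means and SD of 56.8 ± 11.9 and 32.6 ± 7.24 CPM (n = 3 each) and a log2 change of -0.88 (SE 0.22, adjusted p 0.0266 in edgeR). The fall was no longer past the threshold in 7 of 15 alternatives, among them every fit that left out 1 library other than control replicate 3, where the adjusted p reached 0.109 and the log2 fold change stayed between -0.98 and -0.68. With all 8 libraries in 1 fit it was -0.83 (edgeR adjusted p 0.0572), and with control replicate 3 as the only control -0.55.

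Cry2, the paralog of Cry1 and no member, fell as well. Its libraries labelled double knockout were close together, at 104, 93.3 and 95.7 CPM, below the controls at 179.8, 244 and 122 CPM, for a log2 change of -0.98 (SE 0.23, adjusted p 0.0229 in edgeR). Both cryptochrome genes were therefore lower. The call on Cry2 was lost in 5 of the 6 fits without 1 library, at -0.98 to -0.70. Control replicate 3 was the only library whose removal kept it. With that library as the only control the log2 fold change was -0.38.

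Nr1d2 (ENSMUSG00000021775, chromosome 14, 18204054 to 18239127, minus strand) encodes REV-ERBβ, a repressor of Arntl. It was at 59.1, 83.4 and 76.0 CPM in the controls, against 110.2, 131 and 106 CPM in the labelled knockouts. The lowest of the latter was well above the highest control. Nr1d2 rose, with means and SD of 72.9 ± 12.4 and 116 ± 13.2 CPM (n = 3 each) and a log2 change of 0.59 (SE 0.16, adjusted p 0.0384 in edgeR). It lost the threshold in 8 of 15 alternatives, including every fit without 1 library other than control replicate 3. In those fits the edgeR adjusted p reached 0.135. Its log2 fold change stayed between 0.47 and 0.70 in all 15. With the receptor-gene background subtracted it was 0.53 (edgeR adjusted p 0.0571).

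Nr1d1 (ENSMUSG00000020889, chromosome 11, 98767932 to 98775333, minus strand) encodes REV-ERBα, the other repressor of the second loop, and did not pass the test. It was at 171, 186 and 147 CPM in the controls, against 85.7, 168 and 105 CPM in the labelled knockouts. Replicate 2 of the latter lay among the controls while the other 2 lay below them. Its log2 fold change was -0.57 (SE 0.24, adjusted p 0.133 in edgeR). Without that replicate it was -0.85 and past the threshold (edgeR adjusted p 0.0285). The exons of Nr1d1 share 263 bases, 8.55% of its exonic length, with exons of Thra on the opposite strand, and the use of strand in counting was not given in the sources used here, so reads in that stretch cannot be told apart.

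Dbp (ENSMUSG00000059824, chromosome 7, 45705088 to 45710203, plus strand) and Ciart (ENSMUSG00000038550, chromosome 3, 95878503 to 95882251, minus strand) were the least abundant members. Dbp was at 3.82, 12.2 and 5.21 CPM in the controls, against 8.47, 15.6 and 8.62 CPM in the labelled knockouts, on 46 to 229 counts. Control replicate 2 lay among the libraries labelled double knockout and the other 2 controls below all of them. On the log2 scale the change was 0.54 (SE 0.44, adjusted p 0.419 in edgeR), and it ranged from 0.24 without replicate 2 of the labelled knockouts to 1.18 without control replicate 2. Exons of Sphk2 on the opposite strand cover 18.0% of the exonic length of Dbp, and reads there cannot be told apart without strand.

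Ciart was at 8.39, 8.84 and 2.54 CPM in the controls, against 6.66, 5.66 and 3.72 CPM in the labelled knockouts, on 39 to 101 counts. Control replicate 3 was again the lowest of the 6. Its log2 fold change was -0.37 (SE 0.46, adjusted p 0.602 in edgeR). It was 0.98 with control replicate 3 as the only control.

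**Figure D2:**
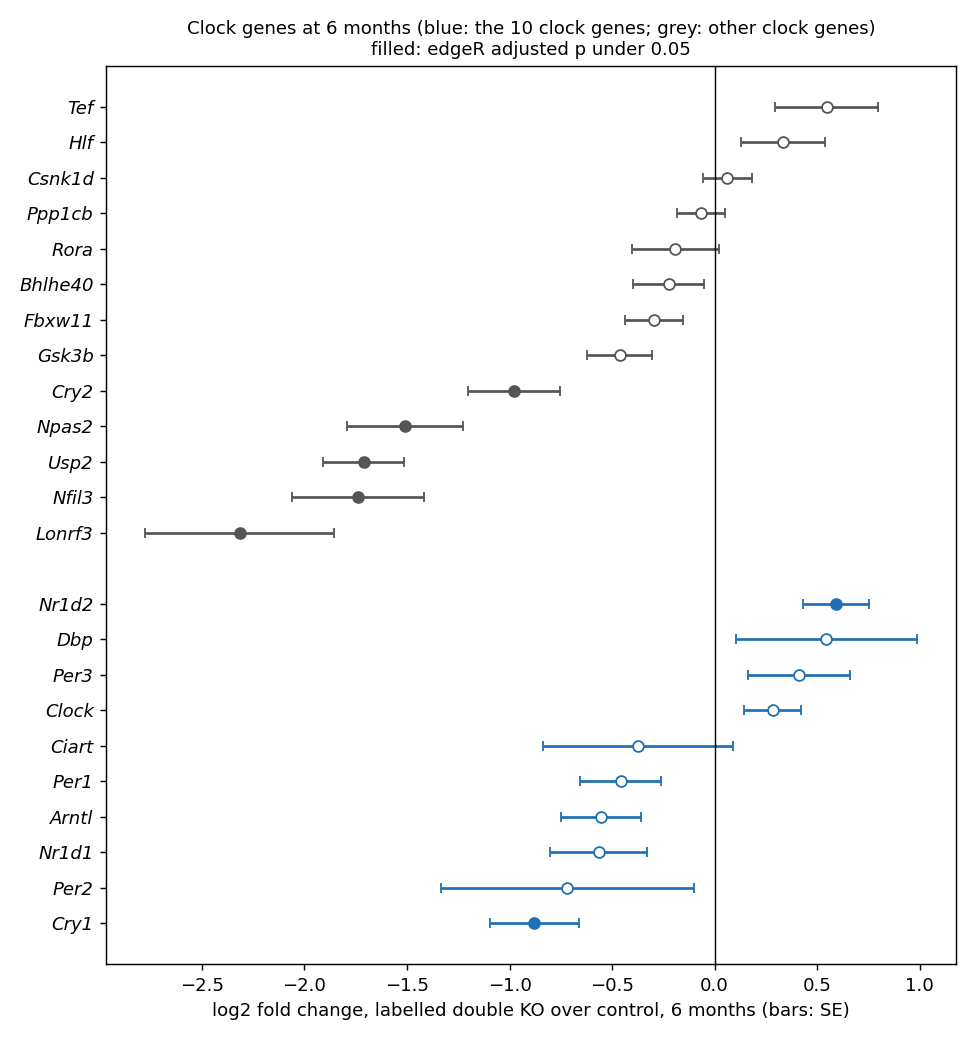
Log2 fold change of the libraries labelled double knockout over the controls at 6 months (x axis; bars are standard errors, n = 3 each) for the 10 clock genes in blue and 13 other clock genes in grey; filled points passed an edgeR adjusted p of 0.05. Cry1 and Nr1d2 are the filled members, and all 5 filled genes outside the members lie to the left of 0.

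Among the other clock genes, from lists of other core genes, modifiers of clock proteins and rhythmic output genes, 25 of 26 were tested, 6 fell and none rose. Of all genes tested 8.59% were called lower. By the same test 10 of the 25 had an unadjusted p under 0.05, against 32% of all genes tested. Core genes among the 6 include Npas2 and Cry2, given above, and Nfil3. Nfil3, the D-box repressor, was at 38.3, 44.8 and 20.9 CPM in the controls, against 9.56, 8.52 and 14.4 CPM in the labelled knockouts (log2 change -1.74 ± 0.32 SE, adjusted p 0.00990 in edgeR). Its lowest control was replicate 3, and the groups did not overlap. The Nfil3 call was lost without replicate 1 of the labelled knockouts (-1.60, edgeR adjusted p 0.0529). With control replicate 3 as the only control its log2 change was -0.99.

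Of the rhythmic output genes, 2 were lower. Usp2, which encodes a deubiquitinating enzyme, was at 86.1, 87.2 and 56.7 CPM in the controls, against 26.1, 22.8 and 24.96 CPM in the labelled knockouts. The latter were close together and all below the lowest control. The log2 fold change of Usp2 was -1.71 (SE 0.20, adjusted p 0.00113 in edgeR), and it kept its side of the threshold in all 15 alternatives, at -1.80 to -1.25. Lonrf3 was at 66.2, 25.1 and 21.1 CPM in the controls, against 9.20, 9.14 and 5.30 CPM in the labelled knockouts (log2 change -2.32 ± 0.46 SE, adjusted p 0.0155 in edgeR). Control replicate 1 stood far above the other 2 controls. Lonrf3 was still past the threshold when that library was left out, at -1.61. It was not without replicate 1 of the labelled knockouts (-2.38, edgeR adjusted p 0.0591). With control replicate 3 as the only control its log2 change was -1.47.

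Tef and Hlf, the relatives of Dbp, were named after their values were seen. Tef was at 40.9, 85.97 and 87.5 CPM in the controls, against 114, 113 and 103 CPM in the labelled knockouts (log2 change 0.55 ± 0.25 SE, adjusted p 0.166 in edgeR). Hlf was at 56.6, 82.3 and 103 CPM in the controls, against 96.0, 122 and 103 CPM in the labelled knockouts (log2 change 0.34 ± 0.20 SE, adjusted p 0.288 in edgeR). Neither passed the test, though both did as higher without control replicate 3 (Tef at 0.80, Hlf at 0.63). In both, as in Dbp and Per3, control replicate 1 was the lowest of the 6 libraries.

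The most abundant of the remaining clock genes did not pass the test. The log2 fold changes were -0.19 for Rora, an activator of Arntl, -0.22 for Bhlhe40, an E-box repressor, and -0.46 for Gsk3b, a kinase of clock proteins (edgeR adjusted p 0.564, 0.402 and 0.0754). They were 0.06 for the kinase gene Csnk1d, -0.07 for the phosphatase gene Ppp1cb and -0.30 for Fbxw11, a ubiquitin ligase subunit (edgeR adjusted p 0.756, 0.727 and 0.179). None of the 8 modifier genes passed in the test as described, in DESeq2 or in limma-voom, while 3 had an unadjusted p under 0.05 in edgeR, against 32% of all genes tested. The kinase gene Csnk1e, named after its values were seen, had a log2 change of -0.73 (SE 0.25, adjusted p 0.0736 in edgeR) and passed without a filter on low counts and without replicate 3 of the labelled knockouts.

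As a description of relative phase, ratios were taken within each library of transcripts whose known cycles are opposite, since a ratio does not depend on depth. A change in the level of either gene also moves a ratio, so a ratio alone does not give a phase. Nr1d1 and Arntl were not opposed in these libraries (below). On counts per exonic kb, the log2 ratio of Dbp to Arntl was -3.86, -1.42 and -2.89 in control replicates 1 to 3. It was -1.90, -1.0 and -1.70 in the labelled knockouts, and -1.87 and -1.91 in those labelled Tfap2b knockout. The controls spanned the widest range, from the lowest of all 8 values to the highest but 1. Within them the mean was -2.72 with an SD of 1.23, against -1.53 with an SD of 0.48 in the labelled knockouts.

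The log2 ratio of Nr1d1 to Arntl was 1.59, 2.47 and 1.89 in control replicates 1 to 3, and 1.40, 2.39 and 1.86 in the labelled knockouts. The ranges of these groups were nearly the same. It was 2.89 and 2.41 in the libraries labelled Tfap2b knockout.

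**Figure D3:**
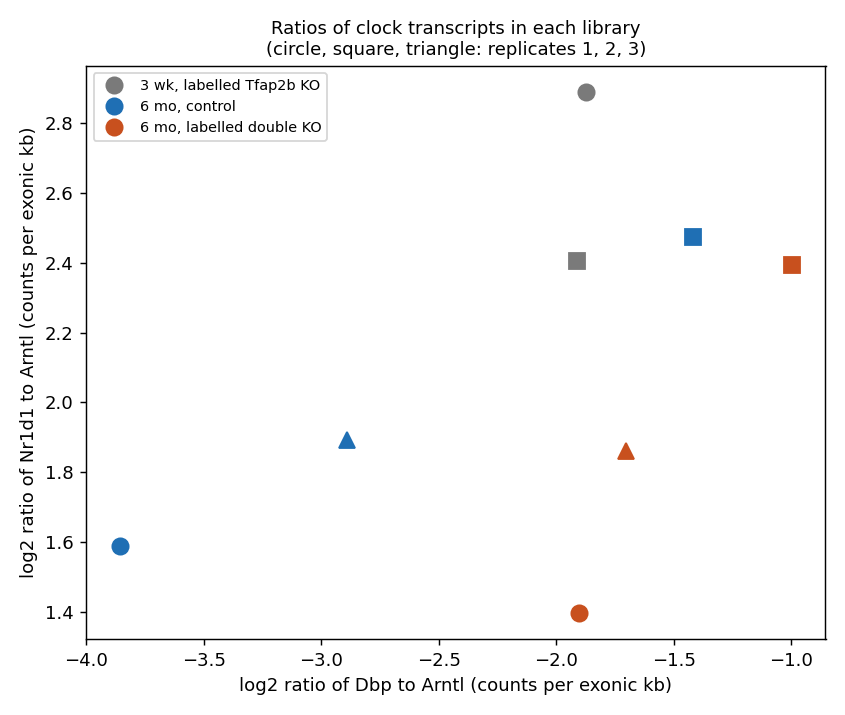
Log2 ratio of Dbp to Arntl (x axis) against that of Nr1d1 to Arntl (y axis), both on counts per exonic kb, in each of the 8 libraries; colours mark the groups and symbols the replicates. The 3 controls run from -3.86 to -1.42 on the x axis, and on the y axis they lie in the same range as the labelled double knockouts.

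Several members had their highest or lowest value in the same library. The share of all genes with an extreme value in each library was not computed, so these counts have no background beside them. Control replicate 1 had the highest Arntl of all 8 libraries and the lowest Per3, Nr1d2 and Dbp. The library labelled double knockout of replicate 2 had the highest Nr1d2 and Dbp and the lowest Cry1. Control replicate 3 had the lowest Per1, Per2 and Ciart. The labels give no time of collection, and the part of collection time in these patterns was not tested.

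The SD of log2 CPM over the 3 controls had a median of 0.41 over the members and of 0.33 over all genes tested. In the libraries labelled double knockout the medians were 0.27 and 0.23. The SD was larger in the controls for 8 of the 10 members, and for 66.8% of all genes tested. Per2 was the most variable member among the controls, with a highest-to-lowest ratio of 5.87 and an SD at the 98.5th percentile of all genes tested. Ciart and Dbp followed, at the 92.95th and 89.7th percentiles, with ratios of 3.48 and 3.19. Nr1d1 went the other way, at the 20.3rd percentile in the controls and the 83.9th in the libraries labelled double knockout. Over all 8 libraries the highest-to-lowest ratio ran from 1.67 for Clock to 5.87 for Per2.

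Glucocorticoid hormone is a daily signal to peripheral clocks, and Per1 and Per2 are among its direct targets. The 5 glucocorticoid-responsive genes listed, Tsc22d3, Fkbp5, Sgk1, Zbtb16 and Klf9, were chosen with earlier results of these data known. All 5 were lowest in control replicate 3 among the controls, and 4 of the 5 were lowest there among all 8 libraries. The share of all genes lowest there among all 8 was not computed. The 5 genes summed to 706, 533 and 221 CPM in control replicates 1 to 3. Their sums were 693, 788 and 651 CPM in the labelled knockouts, and 664 and 944 CPM at 3 weeks. The sum was lowest in control replicate 3. Over all genes tested, that library was about as near to the labelled knockouts (rank correlation of log2 CPM 0.944 to 0.951) as to the other 2 controls (0.942 and 0.947), while those 2 were at 0.903 to 0.917 with the labelled knockouts. Of all genes tested, 33.6% were lowest in control replicate 3 among the controls, and so were 5 of the 10 members: Per1, Per2, Cry1, Nr1d1 and Ciart.

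Fkbp5, a chaperone that dampens the glucocorticoid receptor, was at 141, 74.0 and 15.2 CPM in the controls, against 102, 118 and 115 CPM in the labelled knockouts. Zbtb16, a transcription factor gene, was at 146, 112 and 47.3 CPM in the controls, against 209.8, 257 and 177 CPM in the labelled knockouts, with no overlap. None of the 5 passed the threshold at 6 months in edgeR's test, while 1 of them, Zbtb16, had an unadjusted p under 0.05 (log2 change 0.99 ± 0.38 SE, adjusted p 0.115 in edgeR). Zbtb16, alone of the 5, passed under DESeq2, at 1.05 with an adjusted p of 0.00703, and in 4 further alternatives. With control replicate 3 as the only control, the log2 changes of Fkbp5 and Sgk1 were 2.81 and 1.22. Without that library Klf9 passed as lower (-0.78, edgeR adjusted p 0.0358). Sgk1 passed as higher without a filter on low counts, at 0.68. The part of hormone level in the clock values was not tested.

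**Figure D4:**
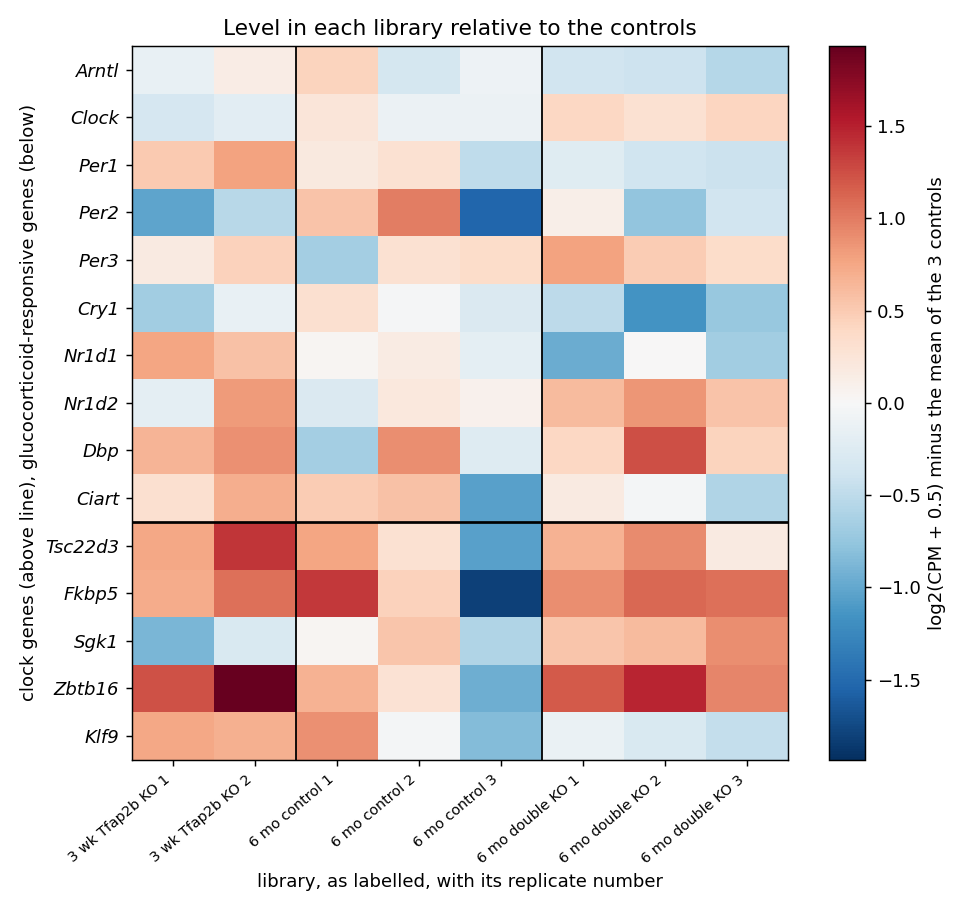
Level of each clock gene (above the line) and glucocorticoid-responsive gene (below it) in each library, as log2(CPM + 0.5) minus the mean of the 3 controls (colour scale: red higher, blue lower). In the column of control replicate 3, all 5 glucocorticoid-responsive genes and every clock gene except Per3 and Nr1d2 lie on the blue side of the scale. Of these clock genes, Arntl, Clock and Dbp lay between the other controls.

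Per exonic kb, which allows genes to be compared, Per1 was the most abundant member in both 6 month groups. It stood at 74.0 ± 19.9 CPM per kb in the controls and 56.9 ± 3.98 in the labelled knockouts (SD, n = 3 each). Nr1d1 came next, at 54.6 ± 6.33 and 38.9 ± 14.1, and its range overlapped that of Per1 in both groups. In the controls Cry1, Nr1d2, Arntl, Per2 and Clock followed at means of 17.01 to 10.2 CPM per kb, each overlapping the next, then Per3 at 6.37, Ciart at 2.91 and Dbp at 2.36. In the libraries labelled double knockout Nr1d2 came after Nr1d1 at 23.1 ± 2.64 without overlap with its neighbours, and Cry1 came below Clock and Arntl at 9.75 ± 2.17. Between neighbours in the control order, the ranges did not overlap from Nr1d1 to Cry1 and from Clock to Per3.

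The 2 libraries labelled Tfap2b knockout at 3 weeks were set against no other group in a test, because age and genotype differ together and cannot be told apart. Per1 was at 576 and 697 CPM and Nr1d1 at 284 and 248 CPM, in both cases above all 6 libraries at 6 months. Clock, at 111 and 119.96 CPM, was below all 6. The share of all genes with such an order was not computed. Arntl was at 93.7 and 114 CPM, Per2 at 29.6 and 41.2 CPM, Per3 at 65.9 and 79.6 CPM, and Cry1 at 35.2 and 50.5 CPM, all within the range at 6 months. Dbp was at 10.2 and 12.1 CPM and Ciart at 7.32 and 9.75 CPM. Nr1d2 was at 63.1 and 128 CPM, the members' highest ratio between these 2 libraries, and replicate 1 is the library with the dermal, adipocyte and endothelial markers. Its part in that gap was not tested.

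As a description of likeness, log2(CPM + 0.5) was taken as deviations from the group means over the 8 libraries in 3 groups, for 11345 annotated genes with a mean of at least 5 CPM. The genes nearest to Arntl were Nkrf, Ephx3, Mars2, Lmbr1l and Pus10, with Pearson r of 0.992 to 0.984, and those nearest to Dbp were S100a14, Nt5c3b, Vps4a, Zdhhc4 and Ttc1, with r of 0.982 to 0.97. None of these is a clock gene. With 8 points, many genes reach such values, and the points share depth and library differences such as those of control replicate 1. Among the members and core genes, Arntl was most like Clock (r = 0.86, 97.6th percentile of all genes compared) and Rora (0.80, 95.1st percentile). It was least like Tef (-0.65) and Per3 (-0.64). Nr1d1 was near neither end (r = -0.085 with Arntl, 47.5th percentile). Dbp was most like Tef (0.61, 94.5th percentile) and Nr1d1 (0.59, 93.9th percentile) and least like Clock (-0.67) and Arntl (-0.61). With group means kept, r over the 8 libraries was -0.35 for Arntl with Clock, so its sign depended on their removal. Nkrf, alone of the genes nearest to Arntl and Dbp, also changed sign (-0.28). The r of Rora with Arntl was then 0.59, and those of Tef and Nr1d1 with Dbp were 0.76 and 0.25. That of Nr1d1 with Arntl was 0.48.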

How the data were processed

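The authors deposited raw counts, whole numbers for each Ensembl gene, with no normalization. Trimmomatic 0.36, STAR 2.5.2b and featureCounts of Subread 1.5.2 are named, with GRCm38 and GRCh38 as builds, per the submitters' processing notes. Strand settings and the treatment of multi-mapping reads were not given in the sources used here. Libraries were made after depletion of ribosomal RNA and read as pairs, per the labels' protocols. Of 49315 identifiers, 48970 were in GENCODE M21, which gave the symbols. Coordinates are those of the files, read as GRCm38. CPM were computed from the total count alone.

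At 6 months the groups were compared with edgeR 4.0.16 in R 4.3.3 with filterByExpr, TMM factors, robust glmQLFit with a prior count of 2, and glmQLFTest. Alternatives were other size factors, no filter, DESeq2 1.42.0, limma-voom (limma 3.58.1), a replicate block, all 8 libraries in 1 fit, subtraction of the background density per exonic kb of 1418 receptor genes, and each library left out. Chosen after seeing the data was the removal of control replicates 1 and 2 together, the 2 with the receptor-gene background. That fit leaves control replicate 3 as the only control. It holds no spread between controls, so its effect sizes are given and its p-values are not. The counts of alternatives include it. On simulated data, 131 of 190 genes changed 4-fold (68.9%) were called among 17263 tested, none in the wrong direction. In that run 8 unchanged genes were called too. The members' log2 fold changes, -0.88 to 0.59, were smaller than 4-fold. The run does not show how often changes of their size are called. Nothing states separate animals, so p-values measure only the spread between these samples.

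The members and lists were chosen with earlier results of these data known. All 10 members are named, and of the other clock lists every gene past the threshold plus the 6 of the rest with the highest mean CPM. Of these, 1 past the threshold is not reported here. Likeness named the 5 genes with the highest r.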

Additional observations from a re-analysis of the deposited data

Results flagged for a closer look

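Per1 and Nr1d1 stood out in data that no test used, the 2 libraries labelled Tfap2b knockout at 3 weeks. Per1 had a mean of 637 CPM there, with both libraries above all 3 controls at 6 months, 1.53 times their mean. Nr1d1 had a mean of 266 CPM, again with both above all 3 controls, 1.58 times their mean. How many of all genes had such an order was not computed. Age and genotype differ together between these libraries and the controls and cannot be told apart.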

How the results depend on the processing

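Of the 150 alternative values of the members, 129 kept their direction and their side of the threshold, most of them for members that did not pass. Of the 2 members called, Cry1 kept its call in 8 of 15 alternatives and Nr1d2 in 7 of 15. The 2637 genes past the threshold became 4809 without a filter on low counts, 4173 with DESeq2, 1548 with all 8 libraries in 1 fit, 437 without control replicates 1 and 2, and 668 to 7544 when 1 library was left out, lowest without replicate 1 of the libraries labelled double knockout and highest without control replicate 3. Total counts gave 50.9% higher calls against 42.1% with TMM. Of the members, 2 passed in the main comparison, 0 with all 8 libraries in 1 fit and 1 with the background subtracted. Without 1 library, 0 to 4 members passed, 4 without control replicate 3. Of the other clock genes 6 passed, and 1 to 10 without 1 library. With control replicate 3 as the only control, the log2 fold change changed sign for Per1 (0.095), Per2 (1.20), Ciart (0.98), Rora (0.18), Klf9 (0.50) and Hlf (-0.00034). Leaving out 1 library gave -0.28 to 0.074 for Rora and -0.78 to 0.031 for Klf9, both above 0 without control replicate 1, and -0.091 to 0.033 for Ppp1cb, above 0 without control replicate 3. Without a filter Ppp1cb was at 0.047, and with the background subtracted Csnk1d was at -0.0023. The cause was not tested. With the replicate number as a block 1729 genes passed, the same 2 members and, in addition, Zbtb16 (1.13, edgeR adjusted p 0.0399). Deviations of same-numbered samples correlated at 0.028, -0.16 and -0.057, so the numbers were not taken to pair the samples. Depth limits Dbp and Ciart, at 39 to 229 counts at 6 months.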
